A study of Mus musculus with 10 samples.

Results

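Messenger RNA of 7 genes of intestinal sugar handling was followed in libraries labelled as mouse intestinal organoids: the transporters *Slc5a1*, *Slc2a5* and *Slc2a2*, the fructose enzyme *Khk* and the glucose-forming enzymes *Fbp1*, *G6pc* and *Pck1*. They were chosen by gene name for their known function, but with earlier results of these data known. All 7 were found among the 47069 genes of the table. The mice were *Lgr5-EGFP-CreERT2* with *Ppp2r1a flox/flox* (strain C57BL/6 in the labels), and their organoids were grown for 50 days in Matrigel with Noggin, EGF and R-spondin-1. There were 10 RNA-seq libraries in 5 groups of 2, labelled control (saline), TAM short, TAM long, DMBA (a carcinogen, with the word long in its label) and DMBA+TAM. TAM is tamoxifen, which switches on the Cre. All groups, the control included, carry the floxed allele of *Ppp2r1a*, the scaffold subunit of the phosphatase PP2A. The Cre is driven by *Lgr5* and so acts in crypt stem cells and what descends from them. The labels of both TAM groups also call the tamoxifen dosage-sensitive. What this, short and long stand for is not given in the sources used here, and the labels do not say whether replicates were separate cultures or animals, so p-values measure the spread between these libraries, which may be technical.

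Dietary glucose and galactose are taken up from the gut lumen together with sodium by SGLT1, the product of *Slc5a1*, and fructose by GLUT5, the product of *Slc2a5*. Both leave the absorptive cell on the blood side through GLUT2, the product of *Slc2a2*. Inside the cell ketohexokinase (*Khk*) commits fructose to breakdown, and enterocytes can turn part of it into glucose with fructose bisphosphatase (*Fbp1*) and the catalytic subunit of glucose-6-phosphatase (*G6pc*). Phosphoenolpyruvate carboxykinase of the cytosol (*Pck1*) opens the path from lactate and amino acids to glucose, and in fat cells it serves the making of glycerol for fat storage. Most of these genes are best known in the gut from mature absorptive cells of the small intestine.

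The libraries do not all hold the same tissue by their markers, and this bears on every result. The 10 epithelial markers summed to 16900 to 26800 normalized CPM (CPM after TMM scaling of the library totals) in the 8 libraries outside DMBA+TAM and to 27.8 to 42.2 in DMBA+TAM, where none of the 10 was at 0. The DMBA+TAM libraries are labelled as organoids like the rest but named Lgr5, and with so little epithelial marker RNA the labels leave unsettled what tissue or cells they hold, which bears on each of their values. The 10 small intestinal enterocyte markers summed to 39400 to 45300 in control, 13200 to 15300 in TAM short, 895 to 955 in TAM long, 316 to 701 in DMBA and 69.2 to 85.0 in DMBA+TAM, with *Apoa4* at 0 in DMBA, *Lct* and *Apoa4* in TAM long, and *Sis*, *Lct*, *Apoa4*, *Apoc3*, *Rbp2* and *Fabp1* in DMBA+TAM. A few genes carried these sums: *Anpep* and *Fabp2* were 6119 and 4222 in TAM short, where *Lct* was 1.97 ± 1.53 (SD, n = 2) against 1417 in control and *Fabp1* 3.67 ± 2.16 against 2173. *Fabp2* alone was 784 ± 80.4 in TAM long and 452 ± 232 in DMBA. These means of *Lct*, *Fabp1* and, in DMBA, *Fabp2* would move by over 1.5 times without replicate 1, the higher library in each case. *Anpep* was 69.0 in DMBA+TAM, against 6.72 in DMBA. The 8 colon markers summed to 273 to 277 in control (*Car1* and *Scnn1b* at 0), 398 to 451 in TAM short (*Aqp8*, *Hoxb13* and *Scnn1b* at 0), 5640 to 12600 in TAM long, 3810 to 7420 in DMBA and 17.9 to 21.6 in DMBA+TAM (*Hoxb13* at 0). Before the replicate number, the library names of the low colon pair, control and TAM short, end in S (NS, DSS_S). Those of the high pair end in L (NL, DSS_L), so gut segment and treatment cannot be told apart across these pairs. None of these names holds DMBA or TAM, and both TAM groups are named DSS. The study's text uses DSS for dextran sulfate sodium, and what it stands for in the names is not given in the sources used here. Whether the treatment labels are right was not tested, which bears on every value given under them. The 9 connective tissue markers summed to 1170 to 1350 in control, 663 to 810 in TAM short, 1490 to 1880 in TAM long, 2080 to 2340 in DMBA and 32600 to 33400 in DMBA+TAM. In bulk RNA, fewer cells of a type and less RNA per cell cannot be told apart.

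**Figure D1:**
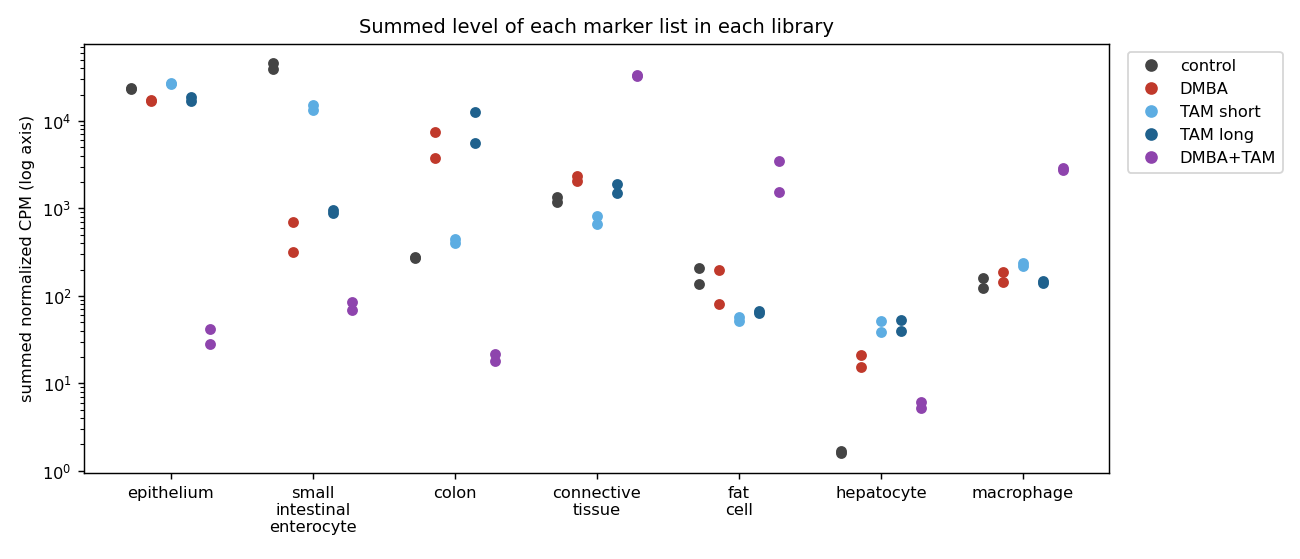
Summed normalized CPM (log axis) of each of 7 marker lists in each of the 10 libraries, 1 point per library and 1 colour per group. The small intestinal enterocyte sum is 39400 to 45300 in control and 69.2 to 85.0, mostly *Anpep*, in DMBA+TAM, while the connective tissue, fat cell and macrophage lists are highest in DMBA+TAM.

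*Ppp2r1a* (ENSMUSG00000007564), the gene the Cre cuts, gave 123 and 129 normalized CPM in the libraries labelled control, 131 and 147 in TAM short, 169 and 157 in TAM long, 167 and 153 in DMBA and 129 and 133 in DMBA+TAM. It was not lower in any tamoxifen group than in control, and it was called higher than control in TAM long (log2 fold change 0.37, adjusted p = 0.0213) and in DMBA, a group without tamoxifen (0.34, adjusted p = 0.0291). Gene counts sum all exons, and the floxed part is exons 5 and 6, so this level does not check the deletion, and group names here are those of the labels. Library totals were 8828247 to 10923673 counts outside DMBA+TAM and 1592366 and 1915270 in DMBA+TAM, so that 3 counts there are worth 1.58 and 1.32 normalized CPM and low levels are least certain in this group. Here and below a gene is called where the quasi-likelihood test of edgeR, with adjustment by Benjamini-Hochberg over 16179 genes, gave an adjusted p under 0.05. Fold ratios are of pooled normalized counts, and their 95% intervals cover counting error only.

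Promoter sequences are shown for the most abundant member (*Slc5a1*), the pair that reached 0 counts in most libraries (*Slc2a2* and *G6pc*) and the member not called against control in DMBA and TAM long (*Pck1*). They are RefSeq sequence of build GRCm38.p6, printed 5′ to 3′ on the strand of the gene, and end at the base before the earlier of the RefSeq and GENCODE starts. Capitals mark matches to the motif letters searched on both strands. The windows are chr5:33103969-33104218 for *Slc5a1*, chr3:28697653-28697902 for *Slc2a2*, chr11:101367466-101367560 for *G6pc* and chr2:173152823-173153047 for *Pck1*, all on the plus strand.
Slc5a1: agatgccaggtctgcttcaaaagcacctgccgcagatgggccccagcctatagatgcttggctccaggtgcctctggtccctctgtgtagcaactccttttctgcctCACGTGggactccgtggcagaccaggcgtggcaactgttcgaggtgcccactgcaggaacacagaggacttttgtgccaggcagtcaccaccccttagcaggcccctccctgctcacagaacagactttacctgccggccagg
Slc2a2: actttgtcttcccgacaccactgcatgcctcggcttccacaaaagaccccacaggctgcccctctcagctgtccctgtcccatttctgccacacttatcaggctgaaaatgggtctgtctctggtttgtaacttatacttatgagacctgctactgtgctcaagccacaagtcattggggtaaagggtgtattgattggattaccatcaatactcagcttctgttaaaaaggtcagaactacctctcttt
G6pc: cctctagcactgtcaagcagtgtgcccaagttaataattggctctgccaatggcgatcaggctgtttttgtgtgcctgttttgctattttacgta
Pck1: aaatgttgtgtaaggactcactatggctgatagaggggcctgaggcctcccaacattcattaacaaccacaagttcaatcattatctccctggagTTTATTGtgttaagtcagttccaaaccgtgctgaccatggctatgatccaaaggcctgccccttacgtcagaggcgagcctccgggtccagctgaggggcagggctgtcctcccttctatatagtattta

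In the 250 bases before each RefSeq start 6 motifs were searched, letter by letter and without regard to overlap. The motif of the gut and liver factor HNF4A was CAAAGTCCA. For the intestinal factor CDX2 the letters were TTTATNG. For factors of the GATA family they were AGATAAG, and for the cyclic AMP response element (CRE) TGACGTCA. For the E-box, which sugar-responsive factors can bind, the letters were CACGTG. The core promoter element called TATA box was searched as TATAAA. *G6pc* held a TATA box 29 bases before its RefSeq start, as did 12.37% of all 32851 promoter windows somewhere, in bases not printed because GENCODE starts the gene 155 bases earlier. *Pck1* held the CDX2 letters 155 bases before its RefSeq start (9.81% of windows). *Slc5a1* held an E-box 143 bases before its start and *Khk* 71 bases before, the latter in bases not printed, against 6.02% of windows. *Slc2a2*, *Slc2a5* and *Fbp1* held none of the 6 motifs, and no member held the HNF4A, GATA or CRE letters in this window, which 0.38%, 2.74% and 1.55% of windows held. A match of letters is a description and not a bound site. Only these exact letters were searched, so near forms were not found and a motif without a match is not shown to be absent. For example, the printed *Pck1* sequence holds ttacgtca, which differs from the CRE letters by a single base. The printed *Slc2a2* sequence holds cttatca, which differs likewise from the GATA letters on the other strand (CTTATCT).

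By position on GRCm38, none of the members shares exon bases with another gene. *Slc5a1* (ENSMUSG00000011034, chr5:33104219-33162870), *Slc2a5* (ENSMUSG00000028976, chr4:150119283-150144169), *Slc2a2* (ENSMUSG00000027690, chr3:28697903-28731359), *Khk* (ENSMUSG00000029162, chr5:30921431-30931248), *G6pc* (ENSMUSG00000078650, chr11:101367561-101377903) and *Pck1* (ENSMUSG00000027513, chr2:173153048-173159273) are on the plus strand, and *Fbp1* (ENSMUSG00000069805, chr13:62864753-62888282) is on the minus strand.

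RNA of the sugar transporters and of ketohexokinase was lower in every group than in control. Against control, *Slc5a1*, *Slc2a5*, *Slc2a2* and *Khk* were called lower in each of the other 4 groups. *G6pc* had 0 counts in all 6 libraries of DMBA, TAM long and DMBA+TAM. *Fbp1* and *Pck1* did not follow: *Fbp1* in DMBA+TAM and *Pck1* in DMBA and TAM long were not called against control. The 4 comparisons use the same 2 control libraries.

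By count, 6 of the 7 members were called lower in DMBA against control, where 23.3% of all genes tested were called lower. In TAM long against control 6 were called lower, against 22.8% of genes. In TAM short against control all 7 were called lower, against 7.80% of genes, but *Fbp1* and *G6pc* rest on every library, as given with those genes. No member was called higher in these 3 comparisons, where 24.5%, 23.2% and 6.52% of genes were. In DMBA+TAM against control 5 were called lower (35.3% of genes) and *Pck1* higher (29.0% of genes). The median log2 fold change over the members was -1.68 in TAM short, -4.98 in TAM long, -5.71 in DMBA and -9.63 in DMBA+TAM, or -5.80 there with members at 0 set to their limits. The medians over all genes were -0.04, 0.05, 0.07 and -0.17. Scaling by library totals alone raised the all-gene medians by 0.08 to 0.48 and the share of called genes that were higher from 51.2% to 71.2% in DMBA, from 50.5% to 72.1% in TAM long, from 45.5% to 58.6% in TAM short and from 45.1% to 62.5% in DMBA+TAM.

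**Figure D2:**
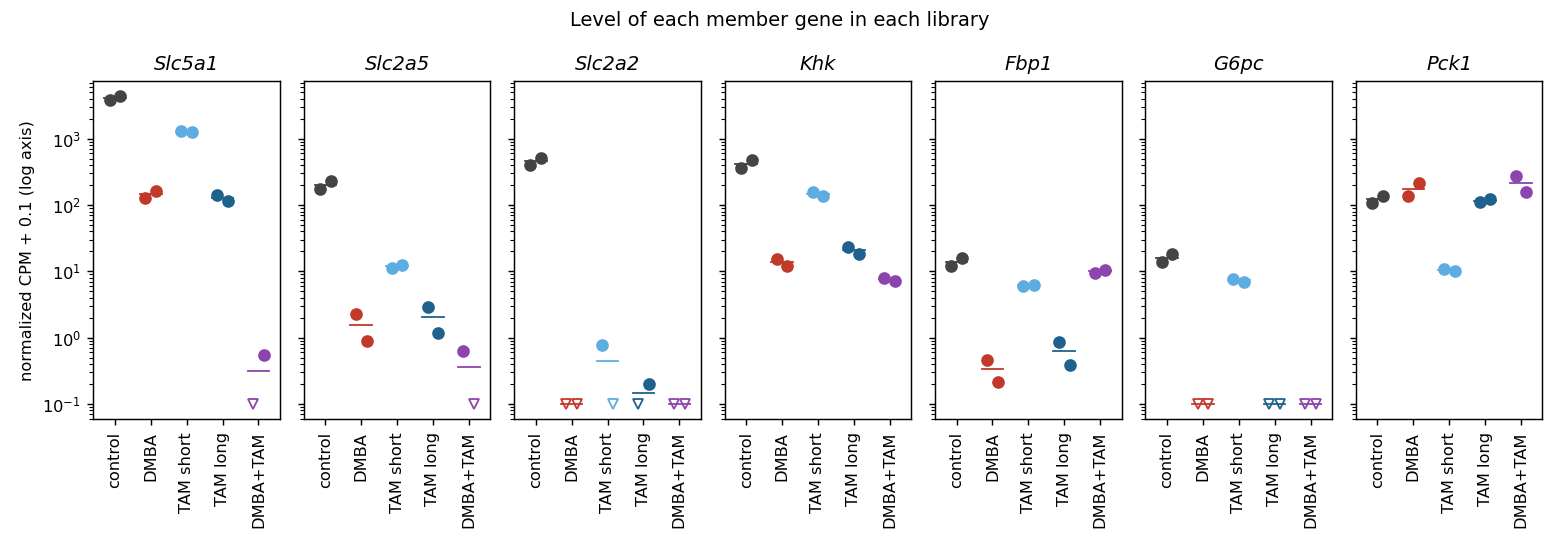
Normalized CPM + 0.1 (log axis) of the 7 members in each library, with a line at the group mean, and open triangles for 0 counts. *Slc5a1* is highest in control (3831 and 4346) and at 0 and 0.441 in DMBA+TAM, whereas *Pck1* is lowest in TAM short (10.8 and 10.1).

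*Slc5a1*, the sodium-coupled glucose transporter, gave 33885 and 36087 counts in control, 11515 and 9934 in TAM short, 1647 and 1187 in TAM long, 1444 and 1427 in DMBA, and 0 and 1 in DMBA+TAM. In control it took 0.329% and 0.361% of all counts of a library. The groups lay in the order control, TAM short, then DMBA and TAM long, whose normalized CPM overlapped (129 and 160 against 142 and 117), then DMBA+TAM. Against control it was 3.19-fold lower in TAM short (interval 3.14 to 3.24, adjusted p = 0.000428), 28.6-fold lower in DMBA (27.5 to 29.7, adjusted p = 4.05e-07) and 31.3-fold lower in TAM long (30.2 to 32.6, adjusted p = 3.41e-07). The 1 count in DMBA+TAM, in replicate 2, gave a ratio of 17000 with an interval of 3050 to 671000 (adjusted p = 8.95e-09). It thus fell in each comparison, and least in TAM short.

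*Slc2a5*, the apical fructose transporter, gave 1561 and 1910 counts in control, 100 and 99 in TAM short, 33 and 11 in TAM long, 24 and 7 in DMBA, and 1 and 0 in DMBA+TAM. TAM short had 11.3 and 12.5 normalized CPM against 176 and 230 in control, a 17.1-fold fall (14.8 to 19.8, adjusted p = 7.96e-05), where that of *Slc5a1* was 3.19-fold. DMBA (2.14 and 0.786) and TAM long (2.85 and 1.08) overlapped each other and lay below TAM short. DMBA was 131-fold below control (92.3 to 193, adjusted p = 1.64e-06), and the log2 fold change of TAM long was -6.65 ± 0.39 (SE, adjusted p = 1.68e-06). Replicate 1 was the higher library of both groups: without it the log2 fold change was -8.01 rather than -7.05 in DMBA, and -7.54 in TAM long. In DMBA+TAM, whose 1 count was in replicate 1, the ratio to control was 843 with an interval of 151 to 33300.

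*Slc2a2*, the basolateral transporter shared by glucose and fructose, gave 3511 and 4270 counts in control, 6 and 0 in TAM short, 0 and 1 in TAM long, 0 and 0 in DMBA, and 0 and 0 in DMBA+TAM. No library outside control had more than 6 counts. Among the enterocyte markers, *Lct* and *Fabp1* were also near 0 in TAM short, at 1.97 ± 1.53 and 3.67 ± 2.16 normalized CPM (SD, n = 2). The rest of that list stayed well above 0 there, from 110 (*Apoc3*) to 6119 (*Anpep*). Of its 10 markers 7 were called lower than in control. *Slc2a2* was at least 3040-fold lower in DMBA (adjusted p = 2.68e-06) and at least 630-fold lower in DMBA+TAM (adjusted p = 1.80e-06) than in control, taking 3 counts over the group as the limit that 0 allows. The ratio of control to TAM short, with all 6 counts in replicate 1, was 1270 (583 to 3460, adjusted p = 2.39e-05), and DESeq2 did not call it (adjusted p = 0.0571). The 1 count in TAM long, in replicate 2, gave a ratio of 9880 (1770 to 390000, adjusted p = 2.48e-06). The bounds differ with the depth of the groups, and no order can be read among the groups at or near 0.

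*Khk*, the kinase that traps fructose in the cell, gave 3205 and 3921 counts in control, 1407 and 1098 in TAM short, 268 and 184 in TAM long, 174 and 107 in DMBA, and 15 and 16 in DMBA+TAM. The groups followed in that same order from high to low in normalized CPM, with no overlap between neighbours. Its fall against control was 2.78-fold in TAM short (2.66 to 2.91, adjusted p = 0.000612), 20.0-fold in TAM long (18.2 to 22.1, adjusted p = 4.64e-07), 29.7-fold in DMBA (26.4 to 33.6, adjusted p = 3.27e-07) and 55.8-fold in DMBA+TAM (39.3 to 82.2, adjusted p = 4.50e-08). Unlike the transporters it was still detected in both DMBA+TAM libraries, at 7.92 and 7.05 normalized CPM. *Khk* is also transcribed at low level in many tissues.

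*Fbp1*, which removes a phosphate from fructose bisphosphate on the way to glucose, gave 105 and 130 counts in control, 53 and 49 in TAM short, 9 and 3 in TAM long, 4 and 1 in DMBA, and 18 and 24 in DMBA+TAM. On the normalized scale DMBA+TAM (9.50 and 10.6) lay just below control (11.9 and 15.7) and far above DMBA (0.357 and 0.112) and TAM long (0.776 and 0.295). The difference from control in DMBA+TAM was not called (log2 fold change -0.45 ± 0.34 SE, adjusted p = 0.277). In DMBA it was 55.1-fold lower than in control (23.3 to 171, adjusted p = 1.20e-05) and in TAM long the log2 fold change was -4.61 ± 0.41 (adjusted p = 1.99e-05). Without DMBA replicate 1 the log2 fold change in DMBA was -6.77 rather than -5.71, and without TAM long replicate 1 that in TAM long was -5.47. The 6 macrophage markers summed to 122 to 238 normalized CPM in the other 8 libraries and to 2760 to 2870 in DMBA+TAM, and some macrophages transcribe *Fbp1*; their part in its level was not tested.

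*G6pc*, which releases free glucose, had 123 and 151 counts in control, 66 and 55 in TAM short, and 0 in each of the 6 libraries of DMBA, TAM long and DMBA+TAM. It was at least 107-fold lower in DMBA (adjusted p = 3.67e-05), at least 116-fold lower in TAM long (adjusted p = 3.43e-05) and, at lesser depth, at least 22.2-fold lower in DMBA+TAM (adjusted p = 9.04e-05). TAM short kept 7.46 and 6.94 normalized CPM against 13.9 and 18.2 in control. That 2.22-fold difference (1.78 to 2.77) was called at adjusted p = 0.0416 and lost its call when any of the 4 libraries was left out (0.135 to 0.281). The same holds for *Fbp1* in TAM short (2.25-fold lower, adjusted p = 0.0351, 0.104 to 0.256 without 1 library). The 6 hepatocyte markers, from a cell type that transcribes *G6pc*, *Fbp1* and *Pck1*, summed to between 1.58 and 52.5 normalized CPM in every library. Most of the higher sums was *Tat*, at 43.8 in TAM short, 45.4 in TAM long and 14.4 in DMBA, against 0.173 in control. *Alb* was at 0 in control and TAM short and had 10, 7 and 7 counts in DMBA, TAM long and DMBA+TAM.

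*Pck1* went its own way. It gave 941 and 1156 counts in control, 96 and 80 in TAM short, 1281 and 1256 in TAM long, 1528 and 1906 in DMBA, and 523 and 360 in DMBA+TAM. In normalized CPM the DMBA (136 and 214) and TAM long (110 and 123) libraries each overlapped control (106 and 139), TAM short (10.8 and 10.1) was far below all of them, and DMBA+TAM (276 and 159) was above control. TAM short was 11.7-fold lower than control (9.99 to 13.7, adjusted p = 0.000119), while TAM long differed from control by -0.07 ± 0.27 (log2, SE; adjusted p = 0.849) and DMBA by 0.51 ± 0.27 (adjusted p = 0.142). In DMBA+TAM *Pck1* was 1.73-fold higher than in control (1.60 to 1.88, log2 fold change 0.82 ± 0.27, adjusted p = 0.0236). This call was lost without control replicate 1 (0.61, adjusted p = 0.173) or without DMBA+TAM replicate 1 (0.34, adjusted p = 0.302). The 6 fat cell markers summed to 51.4 to 210 normalized CPM in the other 8 libraries and to 3490 and 1530 in DMBA+TAM replicates 1 and 2, whose *Pck1* was 276 and 159. In DMBA replicates 1 and 2 the 2 measures ran the other way, with marker sums of 195 and 80.3 beside *Pck1* of 136 and 214. Fat cells transcribe *Pck1*, and their part in its level was not tested.

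**Figure D3:**
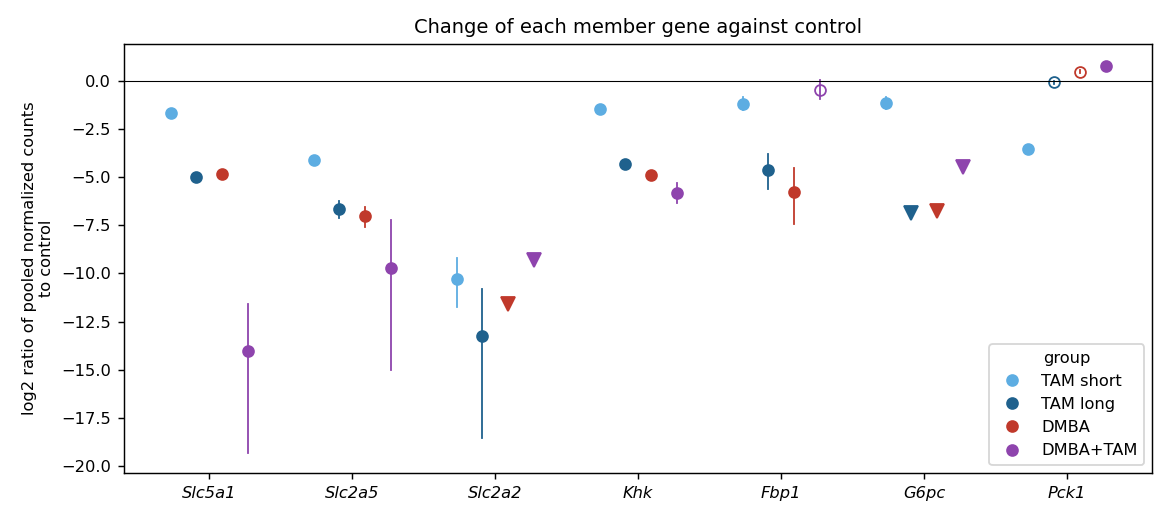
Log2 ratio of pooled normalized counts of each member to control in TAM short, TAM long, DMBA and DMBA+TAM, with 95% counting intervals. Filled points are called, open points are not, and triangles are limits for groups at 0 counts (the true ratio lies at or below them). *Pck1* in DMBA+TAM (1.73-fold higher) is the only filled point above 0.

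The libraries of the tamoxifen groups were also compared with each other. In TAM long against TAM short 5 members were called lower (20.3% of genes) and *Pck1* higher (22.0% of genes). *Slc5a1* was 9.82-fold lower (9.44 to 10.2), *Khk* 7.19-fold (6.50 to 7.97), *Slc2a5* 5.87-fold (4.22 to 8.33), *Fbp1* 11.0-fold (6.05 to 22.0) and *G6pc* at least 52.3-fold. Without TAM long replicate 1 the log2 fold change of *Slc2a5* was -3.45 rather than -2.56 and that of *Fbp1* -4.30 rather than -3.44. *Pck1* was 11.1-fold higher in TAM long (9.53 to 13.0, adjusted p = 3.25e-05). *Slc2a2*, at 1 count against 6, was not called (adjusted p = 0.185). TAM long also held less small intestinal enterocyte and more colon and connective tissue marker RNA than TAM short, as given above, and the part of these in the member values was not tested.

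The DMBA+TAM libraries were then set beside each group given a single agent. Against DMBA, 2 members were called lower (29.9% of genes), *Slc5a1* (2871 counts against 1) and *Khk* (1.88-fold, 1.29 to 2.82, adjusted p = 0.0172), and *Fbp1* was called 40.5-fold higher (16.1 to 131, adjusted p = 1.67e-05; 25.2% of genes). The *Khk* call was lost without DMBA replicate 1 or either DMBA+TAM replicate (adjusted p = 0.0566 to 0.110). Against TAM long, *Slc5a1* and *Khk* (2.79-fold, 1.94 to 4.15, adjusted p = 0.000880) were lower (29.9% of genes), and *Fbp1* (18.3-fold, 9.46 to 38.2, adjusted p = 3.39e-05) and *Pck1* (1.82-fold, 1.68 to 1.97, adjusted p = 0.0192) were higher (25.3% of genes). The log2 fold change of *Fbp1* was 6.29 rather than 5.26 against DMBA without DMBA replicate 1, and 5.00 rather than 4.16 against TAM long without TAM long replicate 1. The *Pck1* call was lost without either TAM long replicate (adjusted p = 0.0589 to 0.107) or without DMBA+TAM replicate 1 (0.208). Against TAM short, *Slc5a1*, *Slc2a5*, *Khk* and *G6pc* were lower (33.8% of genes) and *Pck1* was 20.2-fold higher (17.2 to 23.9, adjusted p = 1.55e-06; 29.3% of genes). *Slc2a2*, at 0 against 6 counts, was not called there (adjusted p = 0.297). *Slc2a5* against DMBA (adjusted p = 0.144) and TAM long (0.0810), and *Fbp1* against TAM short (log2 fold change 0.72 ± 0.36, adjusted p = 0.104), were not called. *Slc2a2* and *G6pc* had 3 counts or fewer in total on both sides of DMBA+TAM against DMBA and against TAM long, so a difference was not detectable at this depth.

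Levels between genes were compared in FPKM, which is per length. In control the order was *Slc5a1* (841 ± 54.8 FPKM, SD, n = 2), *Khk* (334 ± 54.4), *Slc2a2* (133 ± 21.1) and *Slc2a5* (131 ± 21.3), which overlapped, then *Pck1* (56.5 ± 9.34), *Fbp1* (12.5 ± 2.13) and *G6pc* (5.61 ± 0.925). TAM short kept *Slc5a1* (280 ± 7.80) and *Khk* (127 ± 12.5) at the head, and *Slc2a5*, *Fbp1* and *Pck1* followed between 4.94 and 8.59 FPKM, an order that changed when the gene length of the table was used instead. In DMBA, TAM long and DMBA+TAM the head was *Pck1*, at 98.3 ± 21.4, 67.1 ± 4.52 and 141 ± 54.2 FPKM. *Slc5a1* came next in DMBA (36.5 ± 2.01) and TAM long (33.2 ± 4.97), and *Fbp1* in DMBA+TAM (12.8 ± 0.931). So *Pck1* stood in the fifth place in control and at the head of the 7 genes in those groups. This is an order among the genes, and *Pck1* itself was not called against control in DMBA or TAM long. *Slc5a1*, *Khk*, *Slc2a2* and *Slc2a5*, ahead of it in control, were called lower in all of those groups. In DMBA+TAM *Pck1* was called higher, a call that rested on single libraries as given above.

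**Figure D4:**
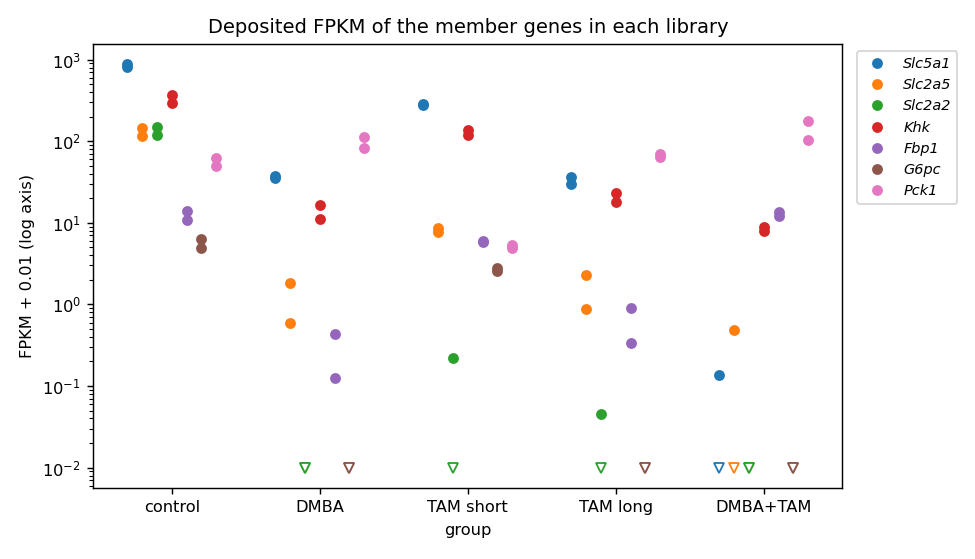
Deposited FPKM + 0.01 (log axis) of the members in each library by group, 1 colour per gene, with open triangles for 0. *Slc5a1* leads in control (802 and 880) and TAM short, and *Pck1* leads in DMBA, TAM long and DMBA+TAM (179 and 102).

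Genes around the members were read from 5 lists, to be set beside the shares of all genes called that are given above. Of 15 other hexose transporters tested (17 listed), 6 were lower and 7 higher in DMBA+TAM against control, with a median log2 fold change of 0.64. *Slc5a4a*, *Slc5a4b*, *Slc5a11* (sodium-coupled carriers) and *Slc2a7* (a GLUT of the gut) had 188, 168, 171 and 64.5 normalized CPM in control and 0 counts in DMBA+TAM. In DMBA they had 0, 0, 2 and 0 counts in total, and in TAM long 2, 2, 5 and 0. In TAM short they had 25, 153, 662 and 14 counts. *Slc5a4a* and *Slc5a4b* are close copies, and reads may be split between them. Against control in DMBA the list had 6 lower and 7 higher, in TAM long 6 and 6, and in TAM short 4 and 1.

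Of the 8 other enzymes of fructose and sorbitol, 6 were lower and 1 higher in DMBA+TAM against control (median -2.49), 6 and 0 in DMBA (-3.46), 6 and 0 in TAM long (-2.35), and 3 and 1 in TAM short (-0.85). *Tkfc*, the triokinase of fructose breakdown, had 227 normalized CPM in control, 112 in TAM short, 9.10 in TAM long, 8.38 in DMBA and 6.56 in DMBA+TAM. *Aldh1b1*, an aldehyde dehydrogenase, had 1191 in control and 6.78 in DMBA+TAM (178-fold lower, 123 to 267).

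Of the 9 other gluconeogenesis genes tested (10 listed), 5 were lower and none higher in DMBA+TAM against control (median -1.05), 4 lower and 3 higher in DMBA (0.20), 4 and 0 in TAM long (0.19), and 3 and 0 in TAM short (-0.23). *Slc37a4*, which carries glucose-6-phosphate to the *G6pc* enzyme, had 101 normalized CPM in control, 37.2 in TAM short, 29.7 in TAM long, 30.7 in DMBA and 11.8 in DMBA+TAM. *Fbp2*, the other fructose bisphosphatase gene, had 306 in control, 214 in TAM short, 92.5 in TAM long, 84.1 in DMBA and 2.20 ± 3.12 (SD, n = 2) in DMBA+TAM. It was called lower there (adjusted p = 7.12e-07), where *Fbp1* was not called, but its 10 counts were all in replicate 2 and replicate 1 had 0, so no fold is given. *Mdh1*, malate dehydrogenase of the cytosol, fell 9.45-fold in DMBA+TAM (8.76 to 10.2).

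Of 13 hexokinase and glycolysis entry genes tested (14 listed), 6 were lower and 6 higher in DMBA+TAM against control (median 0.42), 7 and 3 in DMBA (-0.77), 7 and 3 in TAM long (-1.23), and 1 and 2 in TAM short (-0.21). *Hkdc1* and *Pklr*, the pyruvate kinase of liver and gut, had 548 and 242 normalized CPM in control and 0 counts in DMBA+TAM. *Hk1* rose in DMBA by 3.49 ± 0.15 on the log2 scale (adjusted p = 3.27e-07) and 8.25-fold in TAM long (7.36 to 9.28, adjusted p = 5.19e-07). *Hk2* rose in all 4 groups, 7.48-fold in TAM short (6.92 to 8.09, adjusted p = 0.000141), 6.33-fold in DMBA, 5.26-fold in TAM long and 1.77-fold in DMBA+TAM. *Pkm* fell in all 4, 2.03-fold in TAM short (1.99 to 2.07, adjusted p = 0.00178), 1.79-fold in DMBA, 1.70-fold in TAM long and 1.85-fold in DMBA+TAM. *Hk3*, the hexokinase of white blood cells, rose 20.1-fold in DMBA+TAM (11.8 to 36.1).

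Of 18 regulators tested (20 listed), 14 were lower and 1 higher in DMBA+TAM against control (median -5.12, or -3.92 with genes at 0 at their limits), 9 and 5 in DMBA (-0.47), 11 and 5 in TAM long (-0.66), and 7 and 1 in TAM short (-0.16). *Gata4*, a factor of the proximal small intestine, was at 144 ± 11.9 (mean and SD of 2 libraries, normalized CPM) in control and had 0 counts in DMBA+TAM. Between them lay TAM short at 25.3 ± 16.5, TAM long at 1.91 ± 1.32, and DMBA at 1.17 with a SD above its mean. Replicate 1 was the higher library in these 3 groups, and each mean would move by over 1.5 times without it. *Hnf4g*, a relative of HNF4A in the gut, had 352, 242, 30.0 and 18.7 normalized CPM in control, TAM short, TAM long and DMBA and 0 counts in DMBA+TAM. *Creb3l3*, a membrane-bound factor of enterocytes and liver, fell 53.5-fold in DMBA (46.9 to 61.3) and 73.2-fold in TAM long (63.1 to 85.4).

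**Figure D5:**
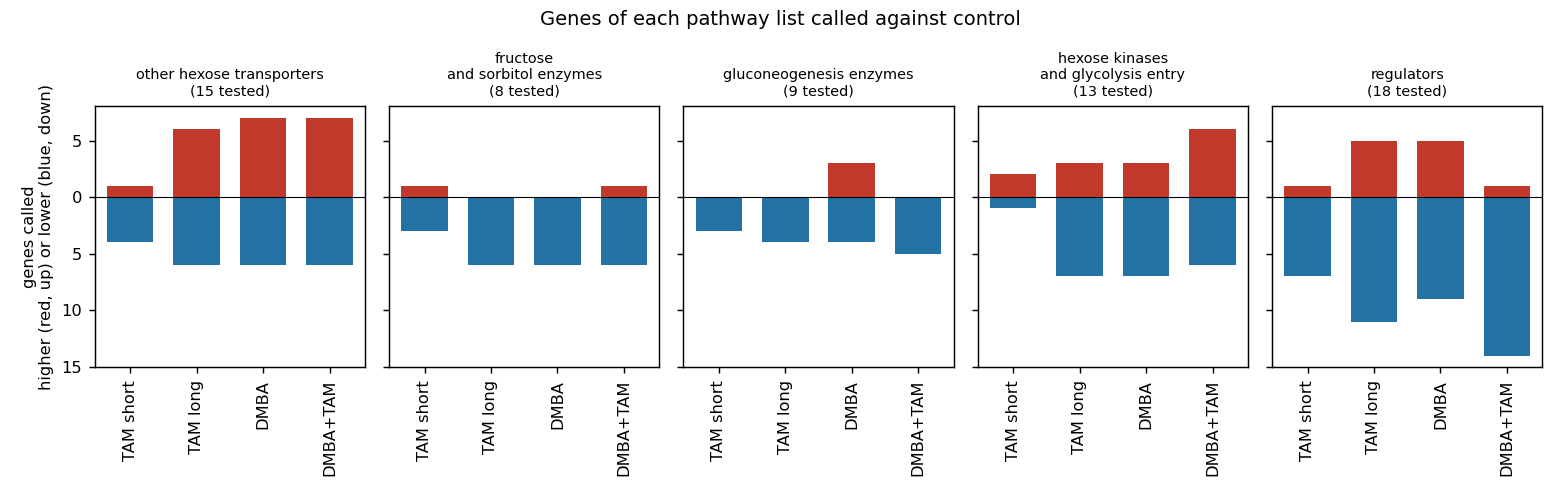
Number of genes of each of 5 pathway lists called higher (red, up) or lower (blue, down) than control, for TAM short, TAM long, DMBA and DMBA+TAM. The fructose and sorbitol list has 6 of 8 lower in each group except TAM short (3), and the regulators have 14 of 18 lower in DMBA+TAM.

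Likeness across the 10 libraries was measured as Pearson's r of log2(normalized CPM + 1) over 10106 genes, and is a description, since the libraries share treatment and tissue makeup. Genes nearest to *Slc5a1* were *Glod5*, *Mgam* and *Cobl* (each r = 0.998). Nearest to *Slc2a2* were *Slc23a1* (0.998), *Lct* (0.995) and *Slc2a7* (0.993), and to *G6pc* the lipid carriers *Apoa4* (1.00) and *Apoc3* (0.999) and *AY761184* (0.998). *Slc2a5* lay near *Tomm70a* (0.994), *Pja1* (0.989) and *Bri3bp* (0.987), *Khk* near *Lta4h* (0.995), *Zfyve21* (0.995) and *Gdpd2* (0.994), and *Fbp1* near *BC005537* (0.988), *Pcsk5* (0.984) and *Ap2a2* (0.982). *Pck1* had less close neighbours, *Ptpn21* (0.960), *Oplah* (0.942) and *Zfp629* (0.929). Among the members, *Khk* and *G6pc* were most alike (0.978) and *G6pc* and *Pck1* least (-0.526).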

How the data were processed

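Poly-A RNA was sequenced in 10 libraries labelled as organoids, and per the study's methods the authors mapped reads with TopHat v2.0.12 to build GRCm38.p6 (labels) and counted reads per gene with HTSeq v0.6.1. The deposited table holds the authors' read counts and their FPKM, which matched the table's own gene length within 1% for 28.0% of genes. Among the members, the length that FPKM implied was shorter than the table's for *Slc2a2*, *Slc2a5*, *Khk*, *Fbp1* and *Pck1*. It was the same for *Slc5a1* and *G6pc*. Whether counting used strand is not given in the sources used here. The adjusted p-values and fold changes of the authors' own comparisons in it were not used. Of 47074 lines, 5 were split lines without counts.

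The counts entered edgeR 4.0.16 (R 4.3.3) with filterByExpr by group, TMM scaling, a quasi-likelihood fit with a mean per group over all 10 libraries (5 residual degrees of freedom), and Benjamini-Hochberg adjustment over 16179 genes, with a threshold of 0.05. An exact two-sided permutation test of 2 against 2 libraries cannot go below p = 0.333. Replicates differed by more than sampling noise in every group. The chi-square per degree of freedom was 67.05 in DMBA, 23.2 in TAM long and 5.57 to 7.21 in the other groups. On simulated counts for TAM short against control, 99 of 100 genes changed 4-fold and 67 of 100 changed 2-fold were called, as were 4 of 15450 unchanged genes. In the simulation no other gene differed between groups, and all groups shared the same spread at a given level. The real groups differed in spread and in far more genes, so these shares may not hold for them. Folds against a group at 0 use 3 counts over the group.

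Alternatives were DESeq2 1.42.0, scaling by library totals, no filter on low counts, a fit of the compared groups alone, a replicate block, a minimum log2 fold change of 1 in size, counts thinned to 1592366, limma 3.58.1 on log2(FPKM + 1) and log2(FPKM + 0.1), and each library left out in turn, where the lone library of a group is assumed to vary like the others. The fit without the DMBA+TAM libraries was added after seeing the data. Members and lists were chosen with earlier results of these data known. Named genes were the 7 members, from each pathway list up to 3 called genes with the largest change in DMBA+TAM and up to 2 in each other group against control with at least 10 normalized CPM in the higher group, and the 3 genes most like each member; some of them, and a promoter motif, are not reported here. Promoters of 7 members were matched by symbol in RefSeq. Python 3.11.15, pandas 2.3.3, NumPy 2.4.6, SciPy 1.17.1 and matplotlib 3.10.9 were used.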

Additional observations from a re-analysis of the deposited data

Results flagged for a closer look

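The change under tamoxifen against control differed between the sets labelled long and short in 6 of the 7 members, by the test of TAM long against TAM short itself, in which 20.3% of all genes tested were called lower and 22.0% higher. The difference in log2 fold change was -3.30 for *Slc5a1*, -2.56 for *Slc2a5*, -2.85 for *Khk* and -3.44 for *Fbp1*, all lower in TAM long, and *G6pc* was at least 52.3-fold lower in TAM long. Without TAM long replicate 1 the difference was -3.45 for *Slc2a5* and -4.30 for *Fbp1*. *Pck1* differed the other way, by 3.48. The segment markers differed between the same libraries (colon list 398 to 451 against 5640 to 12600 normalized CPM), and segment and treatment cannot be told apart here.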

How the results depend on the processing

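The number of members called differed from the reported one by at most 1.5 times in all 108 alternative counts, the widest being DMBA+TAM against DMBA, where 3 members became 2 whenever the *Khk* call was lost. Of 43 called member changes, 37 kept direction and call under every alternative run, and no called change reversed. The others lost a call somewhere: *Slc2a2*, *Fbp1* and *G6pc* in TAM short against control, *Khk* in DMBA+TAM against DMBA, and *Pck1* in DMBA+TAM against control and TAM long. With the replicate number as a block (replicate block), 6 rather than 7 members were called in TAM short against control (*G6pc*, adjusted p = 0.0532), and no other member call changed. The differences of replicate 1 from replicate 2 correlated between groups at 0.323 for DMBA with TAM long. For the other pairs of groups they correlated at -0.060 to 0.077. Whether the numbers pair the libraries of DMBA and TAM long is not given in the labels. Uncalled log2 fold changes that turned sign were *Pck1* in TAM long against control (0.25 with library totals, 0.03 thinned, 0.25 and 0.26 with limma, -0.26 to 0.13 without 1 library) and *Fbp1* in DMBA+TAM against control (0.05 with library totals, 0.04 and 0.05 with limma). Without 1 library, *Pck1* in DMBA+TAM against DMBA ranged from -0.15 to 0.65, and *Slc2a2* from -4.54 to 1.97 in TAM long and from -5.48 to 0.0 in DMBA+TAM, both against TAM short. *Pck1* in DMBA against control was called in 5 of 14 alternatives, with library totals, no filter, both limma fits and without DMBA replicate 1. *Slc2a2* in TAM long against TAM short was called without TAM short replicate 2 (-3.50, adjusted p = 0.038). *Slc2a5* in DMBA+TAM, uncalled against DMBA and TAM long, was called in 2 and 4 of 12 alternatives, and *Fbp1* against TAM short in 3 of 13. Without the DMBA+TAM libraries, a setting chosen after seeing the data, the counts were 6 for DMBA, 6 for TAM long and 7 for TAM short against control. The causes were not tested. The depth of DMBA+TAM limits statements on genes near 0 counts.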
